A study of Mus musculus with 12 samples.

Results

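The genes described here encode the core of intracellular triglyceride breakdown at the lipid droplet and the proteins that coat or join droplets. They are G0s2, Pnpla2, Abhd5, Plin2, Plin3, Plin4, Plin5, Cidea, Cideb and Cidec, 10 of the 55450 genes of the deposited count table, taken by symbol from all 12 libraries. The set was built around G0s2, which was selected on its counts in the knockout and wild-type livers in an earlier pass over the same libraries, so everything below that contains this contrast is a description without a test. The comparisons between brain and liver and the knockout comparison in brain were not used to choose it, though those between tissues use the same livers.

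The libraries are total RNA sequencing of whole brain and whole liver from male Mus musculus aged 7 to 9 weeks, with the genotype Vaultrc5+/+ (labelled wild-type, with flx in the titles) or Vaultrc5-/- (labelled as knockout). Vaultrc5 is a small non-coding RNA of the vault RNA class. There were 4 groups of 3 libraries, wild-type brain, knockout brain, wild-type liver and knockout liver. No treatment, Cre driver or strain is named in the labels used here, and they do not say that the 3 libraries of a group are 3 animals, so p-values measure only the spread between these libraries. Vaultrc5 itself had 33, 39 and 48 counts in the wild-type livers and 4, 1 and 4 in the wild-type brains, and it had 0 in all 6 knockout libraries. Alb, the hepatocyte product albumin, reached at least 30340 CPM (counts scaled to library totals that were adjusted within each tissue by TMM factors) in every liver and at most 0.297 in any brain, and Snap25, a neuronal synaptic protein, was at least 1856 CPM in every brain and at most 0.117 in any liver. Total counts were 14844937 to 18567362 in brain and 23247425 to 27155478 in liver, so a library with no count of a gene allows at most 0.162 to 0.202 CPM in brain and 0.110 to 0.129 CPM in liver (3 counts, counting error only).

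As background, triglyceride in droplets is cut first by the lipase ATGL (Pnpla2), which needs the co-activator CGI-58 (Abhd5), and G0s2 binds ATGL and inhibits it. Perilipins coat the droplet and control access of lipases to it, with Plin2 the main perilipin of hepatocytes and Plin5 common in oxidative tissue and liver. The CIDE proteins (Cidea, Cideb, Cidec) act where droplets meet and in lipoprotein loading. Cideb is the form typical of liver, while Cidec and Plin4 are abundant in fat cells.

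The promoter windows of 4 members are shown because these members are the ones most described below. G0s2 is the gene around which the set was chosen, and Plin2, Plin5 and Cideb are the members with the largest excess in liver. Each window runs from 250 bases before to 50 bases after the RefSeq start on GRCm38.p6, 5′ to 3′ on the gene's strand, all 4 of them on the minus strand, at chr1:193273139-193273438 for G0s2, chr4:86670010-86670309 for Plin2, chr17:56117499-56117798 for Plin5 and chr14:55758375-55758674 for Cideb. Capitals mark the letters of any of 4 motifs searched on both strands: the nuclear receptor half-site AGGTCA, the E-box CACGTG, the GC box GGGCGG and the TATA box TATAAA. These letter strings do not contain one another.
G0s2 promoter: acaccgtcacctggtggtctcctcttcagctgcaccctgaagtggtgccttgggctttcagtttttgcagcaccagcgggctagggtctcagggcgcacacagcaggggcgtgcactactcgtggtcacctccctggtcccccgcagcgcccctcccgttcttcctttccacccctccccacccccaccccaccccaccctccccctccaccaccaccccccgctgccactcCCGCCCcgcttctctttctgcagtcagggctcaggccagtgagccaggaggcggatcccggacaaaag
Plin2 promoter: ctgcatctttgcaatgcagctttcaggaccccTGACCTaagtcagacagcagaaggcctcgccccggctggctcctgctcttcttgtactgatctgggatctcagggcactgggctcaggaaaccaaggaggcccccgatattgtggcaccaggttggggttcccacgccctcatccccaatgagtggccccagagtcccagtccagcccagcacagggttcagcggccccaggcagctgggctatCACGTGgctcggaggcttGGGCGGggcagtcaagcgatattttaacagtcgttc
Plin5 promoter: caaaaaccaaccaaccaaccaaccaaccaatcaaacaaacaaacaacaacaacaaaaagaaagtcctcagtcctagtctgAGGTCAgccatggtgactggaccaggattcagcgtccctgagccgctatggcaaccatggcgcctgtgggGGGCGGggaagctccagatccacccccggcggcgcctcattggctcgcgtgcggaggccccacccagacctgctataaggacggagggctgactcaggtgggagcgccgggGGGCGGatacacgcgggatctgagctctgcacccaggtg
Cideb promoter: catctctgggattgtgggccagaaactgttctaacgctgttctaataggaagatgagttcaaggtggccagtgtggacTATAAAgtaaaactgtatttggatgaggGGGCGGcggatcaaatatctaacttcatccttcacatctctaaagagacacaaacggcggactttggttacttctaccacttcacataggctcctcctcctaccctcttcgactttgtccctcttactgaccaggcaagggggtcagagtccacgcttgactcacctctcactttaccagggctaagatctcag
Among the 9 members searched (all but Cidea), the half-site occurred in Abhd5, Plin2 and Plin5, 3 of 9, against 16.3% of the 32851 mouse promoter windows of this length. The E-box occurred in Plin2 alone, 4 bases before the start, against 7.2% of all windows. The GC box occurred in 7 of 9, missing from Plin4 and Cidec, against 35.7% of all windows. The TATA box letters occurred in Cideb alone, against 13.6%. The G0s2 window held the GC box and none of the other 3 strings, and it was 66.7% G or C, against a median of 52.7% over all windows. Every member window searched but that of Cideb (48.0%) was above this median, from 55.7% (Cidec) to 67.7% (Abhd5). The shares of all windows given here are not matched for G and C content. A match is a description of the letters and says nothing of a factor's binding. The RefSeq start of Plin3 lies 2362 bp from the GENCODE start, so its window is that of another start.

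In the GENCODE M21 annotation of GRCm38, G0s2 is a protein-coding gene on the minus strand at chr1:193272161-193273217, inside an intron of Lamb3 on the other strand, with no shared exon. Pnpla2 is at chr7:141455198-141460743 and Abhd5 at chr9:122351608-122381524, both on the plus strand. Plin5 at chr17:56111601-56117596 and Plin4 at chr17:56100591-56109803 are minus-strand neighbours 1.80 kb apart, and Plin3 at chr17:56277476-56292873 lies 160 kb from Plin5. Plin2 is at chr4:86648386-86670060, Cideb at chr14:55754050-55758458 and Cidec at chr6:113424634-113435760, all on the minus strand, and Cidea is on chromosome 18 on the plus strand. Exons of the other strand overlap exons of Cideb (Nop9, up to 614 bp), of Abhd5 (A730085K08Rik, up to 950 bp, 0 to 6 counts per library) and of Plin4 (Hdgfl2, 17 bp). The kit marks strand, but whether the counting used it is not given in the sources used here, so reads over these shared stretches could be split either way.

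The lipase gene Pnpla2 and its co-activator gene Abhd5 were expressed in both tissues and were higher in liver. Pnpla2 stood at 47.7, 46.0 and 54.9 CPM in the wild-type livers and at 13.4, 9.86 and 14.2 CPM in the wild-type brains. Abhd5 stood at 25.3, 24.3 and 20.2 CPM in the wild-type livers and at 16.8, 16.5 and 17.6 CPM in the wild-type brains. The ranges of liver and brain did not meet for either gene in wild type. Pnpla2 was 7.14-fold lower in wild-type brain than in wild-type liver (log2 fold change -2.84 ± 0.17 SE, n = 3 and 3, edgeR adjusted p = 2.18e-06) and Abhd5 was 2.47-fold lower (-1.31 ± 0.12, adjusted p = 3.54e-05). These folds come from a scaling that sets the bulk of genes level between tissues (TMM), and they are not ratios of the CPM values. In bulk tissue, fewer cells of a type and less RNA per cell cannot be told apart, here and below.

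G0s2, the inhibitor, was also expressed mainly in liver. It stood at 2.97, 1.49 and 2.00 CPM in the wild-type brains and at 26.5, 31.8 and 19.8 CPM in the wild-type livers, with every liver far above every brain. It was 21.7-fold lower in wild-type brain (-4.44 ± 0.30). In the knockout libraries, which share none with the wild type, it was 11.1-fold lower in brain (-3.47 ± 0.20). Both comparisons use livers that entered the choice of G0s2, so these sizes are descriptions and no p is given.

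Among the perilipins, Plin2 and Plin5 had fitted wild-type folds between the tissues of over 100 with TMM, and Plin3 and Plin4 had smaller ones. Plin2 stood at 248, 239 and 220 CPM in the wild-type livers and at 4.64, 3.30 and 3.77 CPM in the wild-type brains. It was 108-fold lower in brain (-6.76 ± 0.17, edgeR adjusted p = 6.89e-08), or 60.6-fold (-5.92) when scaled by library totals. Plin5 had 347, 356 and 503 counts in the wild-type livers and 0, 5 and 2 in the wild-type brains, so the brain libraries were at or near the limit of detection. The ratio of liver to brain counts, scaled by TMM across the tissues, was 212 (95% exact interval 103 to 529, counting error only), and the fitted log2 fold change was -7.65 ± 0.48. It was -8.80 without wild-type brain replicate 2 and -7.13 without wild-type brain replicate 1. Plin5 passed the filter on low counts only through the livers, where it is high, so no p is given. Plin3, a perilipin found in most cells, stood at 30.6, 27.6 and 28.7 CPM in the wild-type livers against 9.93, 5.40 and 15.4 in the wild-type brains. It was 5.09-fold lower in brain (-2.35 ± 0.33, edgeR adjusted p = 0.000333).

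Plin4, a perilipin of fat cells and muscle, varied widely among libraries of the same group. It stood at 5.87, 10.3 and 34.6 CPM in the wild-type livers and at 8.46, 7.86 and 27.1 CPM in the knockout livers, so replicate 3 was the highest liver library of each genotype. In the brains it stood at 2.44, 0.661 and 2.74 CPM in wild type and at 1.06, 3.06 and 8.03 CPM in knockout, and the highest knockout brain overlapped the lower livers. Plin4 was 15.6-fold lower in wild-type brain than in wild-type liver (-3.97 ± 0.78, edgeR adjusted p = 0.00201), and the value was -2.92 without wild-type liver replicate 3 (adjusted p = 0.00351). The knockout value was 6.43-fold (-2.68 ± 0.75, edgeR adjusted p = 0.0123), and this call was lost with scaling by library totals (-1.85, adjusted p = 0.056), without the filter on low counts (adjusted p = 0.0733) and without knockout liver replicate 3 (-1.90, adjusted p = 0.0532). It was larger without knockout brain replicate 3 (-3.65, adjusted p = 0.00638) and without both that library and knockout liver replicate 1 (-3.91, adjusted p = 0.0081), a setting chosen after the data were seen.

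Of the 3 CIDE genes, Cideb and Cidec had more counts in liver and Cidea in brain. Cideb stood at 129, 116 and 134 CPM in the wild-type livers and at 1.01, 1.43 and 2.17 CPM in the wild-type brains. It was 147-fold lower in brain (-7.20 ± 0.25, edgeR adjusted p = 1.92e-07), or 82.4-fold (-6.36) when scaled by library totals. Cidea had 49, 20 and 28 counts in the wild-type brains, 27, 10 and 20 in the knockout brains, and at most 1 count in any liver library. The ratio of brain to liver counts on the same scaling was 78.8 in wild type (95% exact interval 13.8 to 3140) and 47.6 in knockout (8.21 to 1910), each resting on 1 liver count. Cidea passed the filter on low counts only through the brains, where it is high, so its difference is given as a description, with no p. The fitted log2 fold change of 5.90 in wild type became 7.92 without liver replicate 3, and that of 5.18 in knockout became 7.18 without liver replicate 2, the libraries that held the liver count. Cidec was scarce, with 10, 14 and 11 counts in the wild-type livers and 0 in each wild-type brain. Set against a limit of 3 counts over the 3 brains, on the same scaling and with the liver counts taken as exact, it was at least 14.4-fold higher in wild-type liver. The 95% exact interval, which also allows for the error of the liver counts, starts at 11.1. Cidec did not pass the filter there and was not tested, and so has no p.

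**Figure D1:**
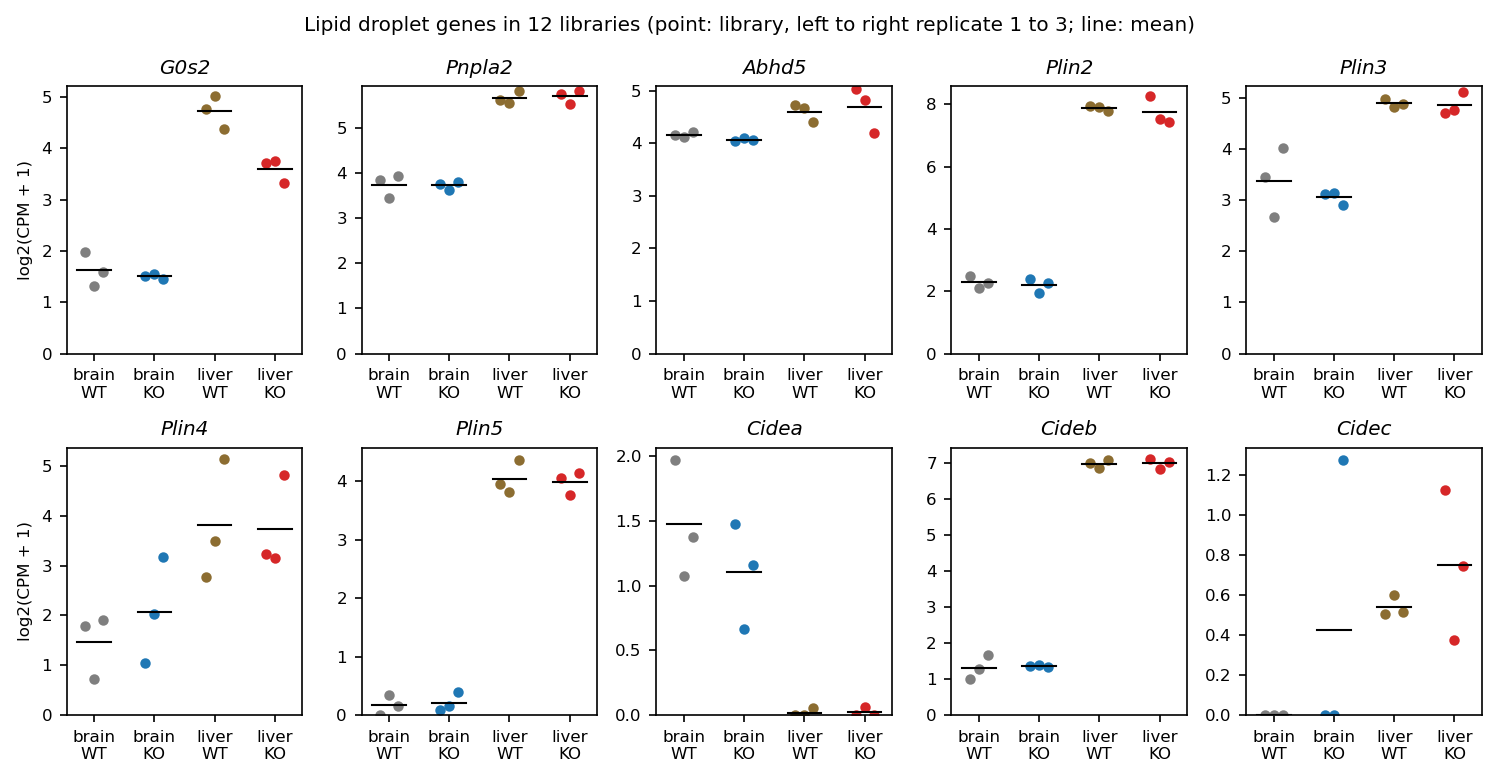
Level of each of the 10 genes as log2(CPM + 1) in the 12 libraries, in 10 panels with 4 groups each (WT, wild type; KO, knockout) and a separate vertical scale per panel; points are libraries in the order of replicates 1 to 3 and lines are means of the plotted values. G0s2 was lower in all 3 knockout livers (9.08 to 12.5 CPM) than in all 3 wild-type livers (19.8 to 31.8 CPM), and Cidea alone was higher in brain.

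Of the members tested between the wild-type tissues, Pnpla2, Abhd5, Plin2, Plin3, Plin4 and Cideb passed the filter on low counts in both tissues and were not used in the choice, and all 6 were called lower in brain. Plin5 and Cidea passed the filter through 1 tissue only, and the livers of G0s2 entered its choice, so their calls are not counted here. Of all genes tested there, 34.7% were called higher in liver and 43.9% higher in brain, so a tissue difference as such was the usual case. In the knockout libraries the same 6 genes were called lower in brain, with the limits given above for Plin4, beside 35.2% of all genes called higher in liver and 43.5% higher in brain. Cidec was not called in knockout (-1.47 ± 1.21, edgeR adjusted p = 0.295), and knockout brain replicate 3 held all of its brain counts, so a fit without that library sets the livers against brains at 0. The median log2 fold change over all genes was 0.21 in both genotypes, and it became 1.05 in wild type and 1.07 in knockout when scaled by library totals. The shares of all genes higher in liver and in brain were then 21.2% and 61.7% in wild type and 20.7% and 61.8% in knockout. That scaling turned the split of wild-type calls from 8275 higher in brain and 6542 lower to 11623 and 3999, and that of knockout calls from 8178 and 6611 to 11614 and 3887. Under it every member kept its direction, with Cidec in knockout at -0.62 (adjusted p = 0.652) and Abhd5 still called (-0.47 in wild type, edgeR adjusted p = 0.00855, and -0.67 in knockout, adjusted p = 0.0186).

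**Figure D2:**
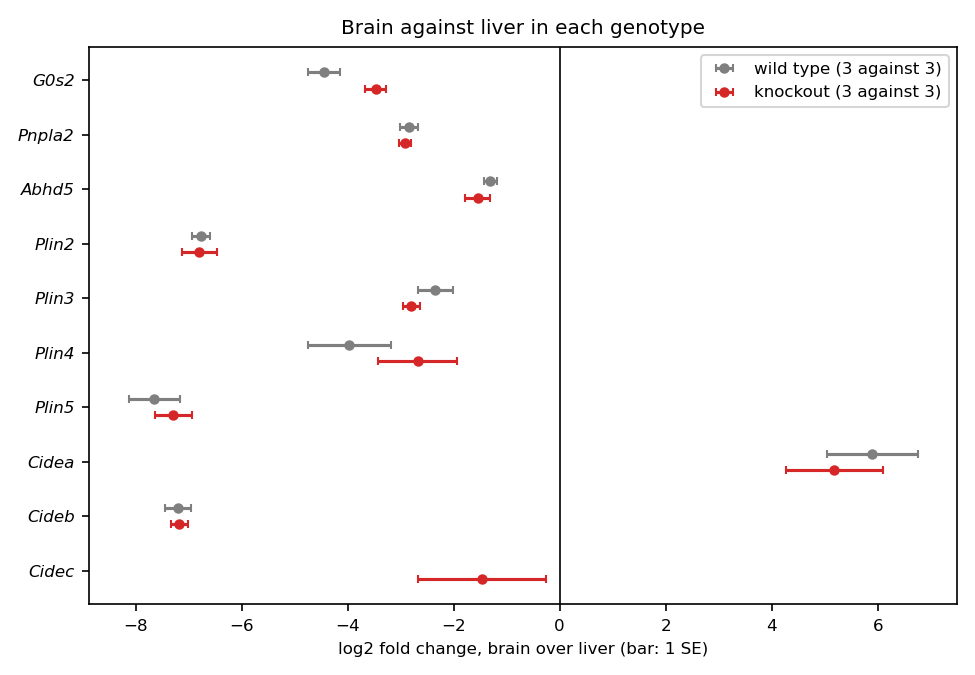
Log2 fold change of brain over liver from the edgeR fit for each gene in wild type (grey) and knockout (red), 3 libraries against 3; bars are 1 standard error. The 8 genes tested in both genotypes and left of 0 run from -1.31 (Abhd5) to -7.65 (Plin5), and Cidea lies at 5.90 and 5.18; Cidec was tested in knockout only.

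Levels of different genes were compared as CPM per kb of exon, the only scale on which they can be set side by side. In the wild-type livers Cideb led with 85.0 ± 6.44 (SD, n = 3), followed by Plin2 with 67.0 ± 4.02, G0s2 with 29.8 ± 6.91 and Pnpla2 with 16.4 ± 1.57, and none of these ranges overlapped its neighbour's. Plin3 (7.65 ± 0.410) and Plin5 (7.54 ± 1.62) were not separated by their ranges, nor were Abhd5 (3.91 ± 0.455) and Plin4 (2.93 ± 2.68). Cidec at 0.245 ± 0.0286 and Cidea at 0.0116 came last. With the length of the longest transcript in place of all exons, Plin2 stood above Cideb (125 against 104), and the range of Abhd5 (6.40 to 8.03) met those of Plin3 and Plin5. In the wild-type brains Pnpla2 led with 4.14 ± 0.763, and the next 6 genes, Abhd5, Plin3, G0s2, Cidea, Plin2 and Cideb, formed a chain of overlapping ranges with means from 2.84 to 1.03. The range of Pnpla2 (3.26 to 4.69) was clear of Abhd5 but met those of Plin3 (up to 4.06) and G0s2 (up to 3.41). With the longest transcript, Abhd5 led in the wild-type brains with 5.37, and its range met that of Pnpla2, at 4.76, so the order of these 2 depends on the length used. Plin4, Plin5 and Cidec were below them, at 0.337, 0.0622 and 0. In the knockout livers the order was that of the wild type except that G0s2, at 12.9 ± 2.17, stood below Pnpla2, at 16.9 ± 1.71, and that the ranges of Cideb and Plin2 met.

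The knockout comparison in brain asked whether loss of Vaultrc5 was accompanied by a change in these genes, and no member passed the test. G0s2 stood at 1.85, 1.94 and 1.73 CPM in the knockout brains, inside the wild-type range. Its log2 fold change was -0.22 ± 0.31, and those of its partners were -0.03 ± 0.17 for Pnpla2 and -0.10 ± 0.10 for Abhd5. The summed level of 4 endothelial markers was the only one of 11 lists without overlap in brain, at 38.8 to 43.8 CPM in wild type and 44.4 to 54.3 in knockout, and its part was not tested. The 4 markers did not move together, with Pecam1 at 0.47 ± 0.12 (edgeR adjusted p = 1.00) and Cdh5 at 0.19 above 0 and Kdr at -0.06 and Stab2 at -0.22 below. The edgeR adjusted p was 1.00 for all 8 members tested, and 0% of the 18075 genes tested were called (119 had an unadjusted p under 0.05, and DESeq2 called 0). Plin5 and Cidec did not pass the filter on low counts in brain.

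Abhd5 was the member whose brain ranges did not meet, with 15.5, 16.2 and 15.8 CPM in knockout against 16.8, 16.5 and 17.6 in wild type. This was 1 of 8 members lower without overlap and 0 of 8 higher, where 2.37% of all genes were lower and 1.89% higher without overlap. Plin2 stood at 4.23, 2.88 and 3.77 CPM in the knockout brains (-0.11 ± 0.23), and Cideb at 1.58, 1.65 and 1.54 CPM (0.05 ± 0.33). Cidea gave -0.64 ± 0.52, which became -0.19 without wild-type replicate 1 and -1.04 without knockout replicate 1. None of these 3 separated the genotypes.

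The brain values of Plin3 and Plin4 each turned on 1 library. Plin3 stood at 7.72, 7.88 and 6.49 CPM in the knockout brains, and its -0.47 ± 0.36 became -0.05 without wild-type replicate 3, the library with the highest value. The summed level of 3 oligodendrocyte markers was also highest in that library, 5725 CPM against 1652 to 2995 in the other 5 brains, and its part in the Plin3 value was not tested. Plin4 gave 1.06 ± 0.78 and became 0.08 without knockout replicate 3.

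That knockout brain library also held adipocyte transcripts. Of 7 adipocyte markers, 5 were at 0 in each of the other 5 brains, where the summed level was 0.535 to 0.771 CPM, and all 7 had counts in knockout brain replicate 3, where the sum was 27.9 CPM. Adipoq, which encodes the fat-cell hormone adiponectin, had 17 counts there and Plin1, the perilipin of adipocytes, had 28, and both had 0 in the other brains. All 23 brain counts of Cidec came from this library. In liver the 7-marker sum ran from 2389 to 2995 CPM in wild type and 1210 to 3022 in knockout, because liver itself expresses some of the 7. Over the 5 markers without Fabp4 and Car3, a choice made after the values were seen, knockout liver replicate 1 stood at 6.97 CPM, wild-type liver replicate 1 at 1.13 and the other 4 livers at 0.0778 to 0.255. Knockout liver replicate 1 was also the highest liver for Cidec, with 31 counts, and for Plin2, with 307 CPM. The part of adipocyte RNA in the Cidec, Plin4 and Plin2 values was not tested.

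**Figure D3:**
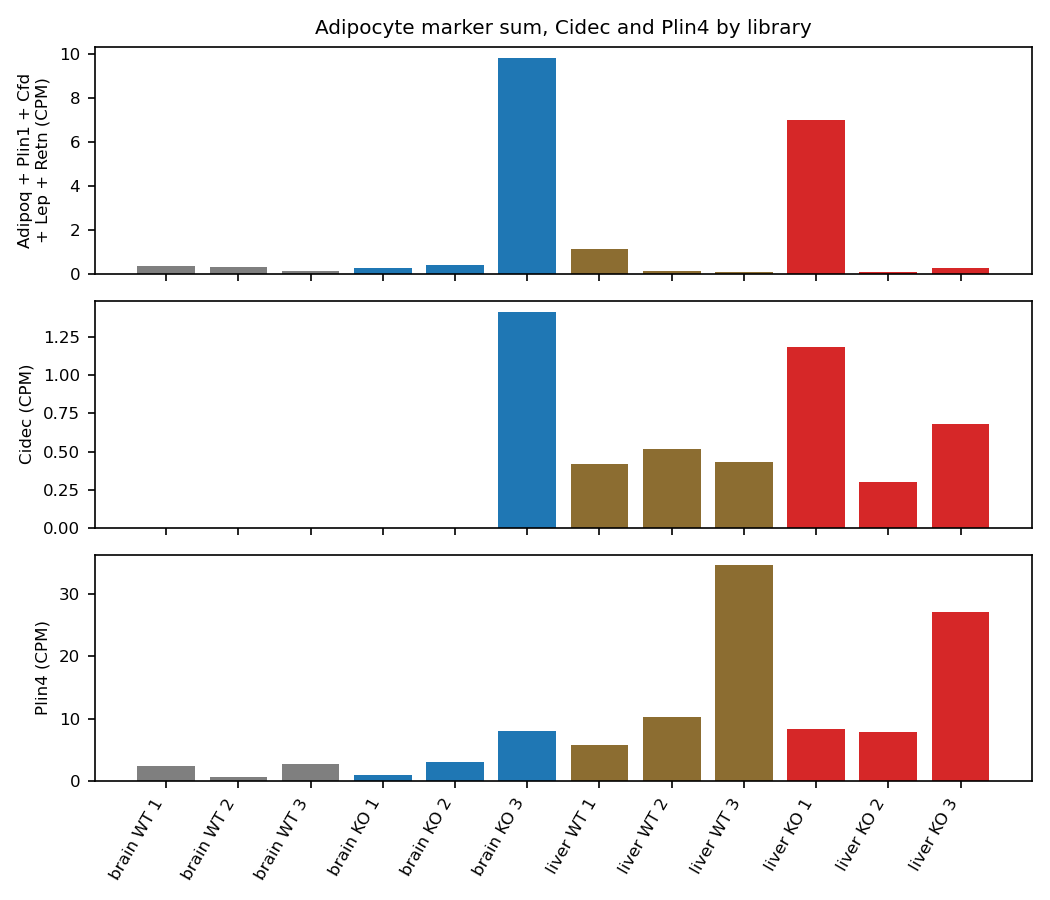
Bars give the summed CPM of 5 adipocyte markers (top), Cidec CPM (middle) and Plin4 CPM (bottom) in each of the 12 libraries (WT, wild type; KO, knockout). Knockout brain replicate 3 is the brain library with the highest value in all 3 panels (9.82, 1.42 and 8.03 CPM), and knockout liver replicate 1 has the highest marker sum (6.97) and Cidec (1.19) among livers, but not the highest Plin4.

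In liver, the contrast on which G0s2 was chosen, G0s2 stood at 12.2, 12.5 and 9.08 CPM in the knockout libraries and at 26.5, 31.8 and 19.8 CPM in the wild type, means of 11.3 ± 1.89 and 26.0 ± 6.02 (SD, n = 3). The highest knockout value was below the lowest wild-type value. The log2 fold change was -1.21 ± 0.20 and ran from -1.37 to -1.04 when each library was left out in turn. With the replicate number as a block it was -1.20 ± 0.10, and that fit, which put G0s2 among the 2 genes called (0.0130% of 15329), is how it was selected. Without the block edgeR called 0% of the genes tested (536 had an unadjusted p under 0.05, and DESeq2 called 10). The deleted gene Vaultrc5, at 0 in all 3 knockout livers, also missed the threshold there (edgeR adjusted p = 0.333), so a missed threshold in this fit does not show that a gene was unchanged. Members without overlap were 1 of 9 lower and 0 of 9 higher, beside 5.12% and 4.72% of all genes, and the 1 is the gene selected.

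The partners of G0s2 overlapped their wild-type levels in the same livers, given as a description because the contrast is the same. Pnpla2 stood at 53.2, 45.3 and 55.0 CPM in knockout (0.05 ± 0.11 on the log2 scale) and Abhd5 at 31.9, 27.3 and 17.2 CPM (0.13 ± 0.22). Both overlapped the wild-type livers. With each library left out in turn Pnpla2 ran from -0.01 to 0.13 and Abhd5 from -0.07 to 0.34, so neither sign was stable. The ratio of G0s2 to Pnpla2, each per kb, was 1.92, 2.39 and 1.25 in the wild-type livers and 0.796, 0.955 and 0.572 in the knockout livers, means of 1.85 ± 0.577 and 0.775 ± 0.193. In the brains it was 0.593 ± 0.152 in wild type and 0.524 ± 0.0682 in knockout, with overlapping ranges. The ratio is one of transcripts and says nothing of protein. With the longest transcript as length the liver ratios were 1.61 and 0.673.

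The ranges of the droplet coat genes, and of Cideb and Cidec, overlapped between genotypes in liver. Plin2 stood at 307, 185 and 172 CPM in knockout (-0.09 ± 0.22), Plin3 at 25.2, 26.3 and 33.7 (-0.03 ± 0.12) and Cideb at 140, 114 and 131 (0.02 ± 0.11). Plin5 had 409, 297 and 393 counts (-0.07 ± 0.17). Plin4 gave -0.23 ± 0.87, and leaving out knockout replicate 3 gave -1.05, while leaving out wild-type replicate 3 gave 0.84. Plin2 moved to -0.40 without knockout replicate 1, the only knockout liver that was not below the wild-type range of 220 to 248 CPM, and to 0.06 without knockout replicate 3. Cidec, with 31, 7 and 16 counts in knockout, gave 0.67 ± 0.51 and became 0.10 without knockout replicate 1, the liver with the highest adipocyte sum. Cidea did not pass the filter in liver.

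**Figure D4:**
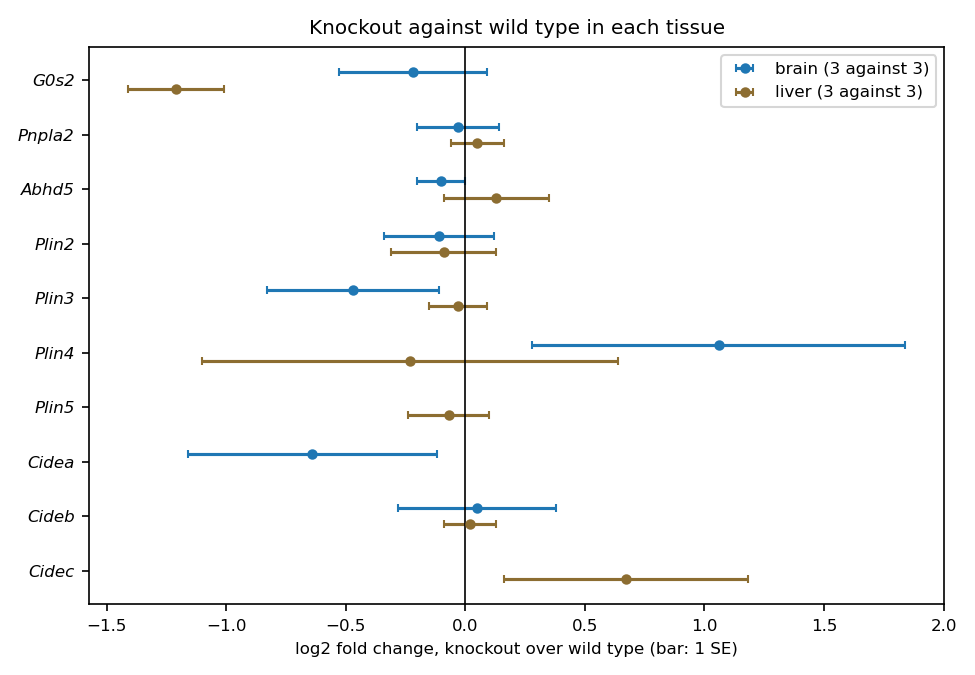
Log2 fold change of knockout over wild type from the edgeR fit in brain (blue) and liver (brown), 3 libraries against 3; bars are 1 standard error. G0s2 in liver lies at -1.21, and the other members lie between -0.64 and 1.06; Plin5 and Cidec were tested in liver only and Cidea in brain only.

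The difference between the liver and brain effects for G0s2 was -0.99 ± 0.36 on the log2 scale. This contains the liver contrast and is a description, and edgeR called 0% of 20141 genes for this difference. Of 11 lists of cell type markers, the summed level overlapped between genotypes in liver for 10, among them hepatocytes (55130 to 69350 CPM in wild type, 44540 to 72450 in knockout) and Kupffer cells (101 to 135 and 112 to 257 CPM, the highest in knockout replicate 2). The 3 microglia markers, which other macrophages also express in part, did not overlap, at 1.63 to 2.10 CPM in the wild-type livers and 2.33 to 5.69 in the knockout livers. Single markers with an unadjusted edgeR p under 0.05 were P2ry12 of that list (1.11 on the log2 scale), the Kupffer marker Adgre1 (0.50), the endothelial marker Pecam1 (0.41) and the red cell marker Hbb-bs (0.97), all higher in knockout liver and none called, with an adjusted p of 0.992 each. They were named after their values were seen. The part of these cell types in the G0s2 value was not tested. Lamb3, whose intron holds G0s2, gave -0.29 ± 0.21 in liver and -0.01 ± 0.37 in brain, with 42 to 75 counts per liver library.

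Among 14 clock genes, liver replicate 3 was the highest library of both genotypes for 9 and the lowest of both for 4, and Nr1d1 was the exception. Dbp, a clock output gene, stood at 60.2, 52.5 and 105 CPM in the wild-type livers and at 30.2, 36.1 and 93.8 in the knockout livers. Arntl, which encodes the clock activator BMAL1, was low in the same libraries, at 2.45 CPM in wild-type replicate 3 against 8.64 and 9.09, and at 2.89 in knockout replicate 3 against 14.2 and 11.6. Plin4 was highest, and G0s2 lowest, in replicate 3 of each genotype. The labels give no time of day, feeding state or batch, and the part of any of them was not tested. Within each replicate number G0s2 was lower in the knockout liver, as its separate ranges in the contrast used to choose it require for any pairing.

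**Figure D5:**
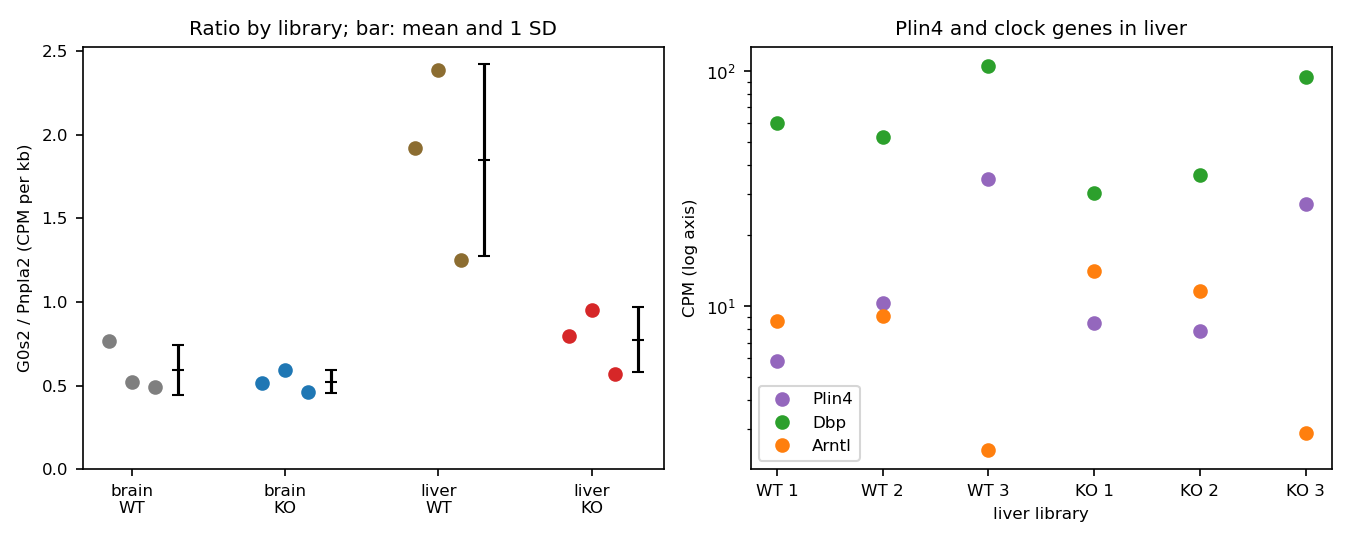
Left, ratio of G0s2 to Pnpla2 (both as CPM per kb) in each library with the group mean and 1 SD; right, CPM of Plin4, Dbp and Arntl on a log axis in the 6 liver libraries (WT, wild type; KO, knockout). The knockout livers lie at 0.572 to 0.955 and the wild-type livers at 1.25 to 2.39, and in replicate 3 of both genotypes Plin4 and Dbp are highest and Arntl lowest.

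The genes with the liver pattern most like that of G0s2 were taken by Pearson correlation of log2(CPM + 1) over the 6 livers, among 9615 genes with a mean of at least 5 CPM. They were Tfip11 (r = 0.998), Nop9 (0.985), Tmem160 (0.984), Rab21 (0.984) and Snord15b (0.984). Their log2 fold changes in liver were smaller, from -0.13 ± 0.07 for Rab21 to -0.59 ± 0.18 for Snord15b. By rank, 16 genes had a Spearman correlation of 1.000 with G0s2 over these 6 libraries, which shows how little 6 points separate the genes. The libraries share genotype groups and replicate numbers, and no p is given.

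Other genes of lipid handling were read from 7 lists with 100 genes. With edgeR, 0 of the genes tested in these lists were called in brain and 0 in liver, where in each tissue 1 gene of the lists had an unadjusted p under 0.05, and DESeq2 called 0 of the lists' genes in either tissue. The 15 lipases and hydrolases outside the set had a median log2 fold change of -0.04 in liver (range -0.49 to 0.30), beside 0.01 over all genes. Lipe, the hormone-sensitive lipase that follows ATGL, gave 0.30 ± 0.25, and Mgll, which cuts the last fatty acid from glycerol, gave -0.00 ± 0.08. The 19 tested genes of triglyceride synthesis and droplet formation had a median of -0.02, with Dgat2, an enzyme of the last step, at -0.25 ± 0.16. The other 8 tested droplet surface genes had a median of -0.10, with Hsd17b13, a liver droplet protein, at -0.06 ± 0.08.

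Among regulators, 14 were tested in liver with a median of -0.02. Ppara, the fatty acid receptor that drives fasting genes, gave -0.32 ± 0.20, Nr1h3, the oxysterol receptor LXR alpha, gave 0.14 ± 0.08, and Srebf1, which drives lipogenesis, gave -0.32 ± 0.40. Cebpa, a hepatocyte and adipocyte transcription factor, gave -0.32 ± 0.10 and is the listed gene with an unadjusted p under 0.05 in liver (edgeR adjusted p = 0.992), while in brain it is the droplet formation gene Fitm2 (-0.24 ± 0.09, adjusted p = 1.00). Both were named after their values were seen. The 15 PPAR alpha target genes of oxidation and ketogenesis had a median of -0.15 and a range of -1.12 to -0.02, and none was called. The 12 feeding and fasting genes had a median of 0.08, with the gluconeogenic enzyme gene Pck1 at 0.09 ± 0.48. The 14 clock genes had a median of -0.08. In brain the medians of the 7 lists ran from -0.11 to 0.12, beside 0.00 over all genes.

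Between tissues, the lists are read beside the wild-type share of all genes, 34.7% higher in liver and 43.9% higher in brain, or 21.2% and 61.7% by library totals. Of 15 lipases and hydrolases, 10 were lower in wild-type brain and 2 higher, which became 7 and 5 when scaled by library totals. Pnpla3, a relative of Pnpla2, was 5.94-fold higher in wild-type brain (2.57 ± 0.59, edgeR adjusted p = 0.00457) and Lipa, the lysosomal acid lipase, was 17.8-fold lower (-4.16 ± 0.18, adjusted p = 4.21e-07). Of 19 synthesis and droplet formation genes, 14 were lower and 3 higher, or 12 and 5 by library totals. Of the 14 regulators tested, 11 were lower in brain and 2 higher, with Ppara 131-fold lower (-7.03 ± 0.25, edgeR adjusted p = 2.06e-07). Of 14 PPAR alpha targets tested, 13 were lower in brain. Among 8 droplet surface genes 5 were lower and 0 higher, or 5 and 3 by library totals. In the brain comparison of genotypes, 10 of the lipases and hydrolases and 17 of the synthesis genes passed the filter on low counts. So did 13 regulators, 11 PPAR alpha targets and 5 droplet surface genes. The others passed it between tissues through the livers, where they are high, so their calls are descriptions. Hilpda, another protein known to inhibit ATGL, showed no called tissue difference (0.08 ± 0.30, edgeR adjusted p = 0.825) but was called higher in brain by library totals (0.90 ± 0.30, adjusted p = 0.0223), with 16 to 23 counts per wild-type liver and 21 to 32 per wild-type brain.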

How the data were processed

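The deposited table holds estimated counts per gene for 12 libraries, per the file headers. The authors used cutadapt and STAR with mm10, per the submitters' processing notes, without versions; which program counted the reads, and with what strand setting, is not given in the sources used here. Values that were not whole were 5.06 to 5.71% per library, and all values were rounded; the members' counts were whole. The 10 members and all lists were chosen with earlier results of these data known.

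Tests used edgeR 4.0.16 (R 4.3.3, limma 3.58.1), TMM scaling, genes kept at a minimum count of 10 and total of 15, the robust quasi-likelihood test and Benjamini-Hochberg adjustment over all genes, at 0.05, on the libraries of each comparison. CPM used library totals times TMM factors fitted within each tissue, and limits of detection the plain totals; per-kb levels used the union of exons in GENCODE M21 (GRCm38). Alternatives included DESeq2 1.42.0, other scalings and filters, a replicate block and each library left out. Fits were tested on simulated data. Promoters came from RefSeq on GRCm38.p6. Named genes were the members, genes with overlapping exons, label checks, listed lipid and clock genes and the 5 most like G0s2. Deviations of same-numbered wild-type and knockout livers correlated at 0.33, 0.36 and 0.40, so the numbers paired the livers. Replicate pairs differed by more than counting noise.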

Additional observations from a re-analysis of the deposited data

How the results depend on the processing

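The count of genes called for the knockout in liver was 0, and it became 10 with the DESeq2 Wald test, 4 without the filter on low counts and 2 with the replicate block; with each library left out in turn it ran from 0 to 1. For the difference between the tissues' knockout effects it was 0, and it became 1 with the DESeq2 Wald test and 2 with the replicate block. The cause was not tested. Same-numbered wild-type and knockout brains correlated at 0.65, 0.62 and -0.02, so numbers 1 and 2 went together and number 3 did not. Their mean was 0.42, beside 0.36 in liver. Between tissues the numbers did not pair the samples (at most 0.06), and the block called 0 genes in brain. With each brain library left out in turn, the knockout log2 fold change ran from -0.44 to 0.06 for G0s2, from -0.18 to 0.07 for Pnpla2, from -0.24 to 0.03 for Plin2 and from -0.19 to 0.38 for Cideb, so their signs depend on single libraries. In liver, single libraries likewise turned the sign of every tested member but G0s2 and Cidec. The wild-type tissue comparison kept direction and call in 125 of 125 values under the alternatives. The knockout tissue comparison did so in 143, lost the call in 3 (Plin4) and gained it in 1 (Cidec, once the library with all its brain counts was left out). These values include G0s2, Plin5 and Cidea, whose calls were set aside above, so for these genes they are a description. With 3 libraries a group, and members of under 50 counts in every brain library (Plin5, Cidea, Cideb, Cidec), small changes could have been missed.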

Other observations

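Nop9, which encodes a nucleolar RNA-binding protein and overlaps exons of Cideb on the other strand, was among the genes most like G0s2 over the livers, at 12.2, 12.2 and 11.5 CPM in wild type and 10.1, 10.1 and 9.29 in knockout (log2 fold change -0.28). In the brains it stood at 6.84, 7.60 and 6.85 CPM in wild type and 10.0, 8.65 and 8.77 in knockout. It was higher without overlap, as were 1.89% of all genes tested in brain, and it was not called.

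Cyp4a14, a fatty acid hydroxylase and PPAR alpha target, spanned a wide range over the livers, at 153, 66.9 and 438 CPM in wild type and at 115, 2.85 and 393 in knockout. It was highest in replicate 3 of both genotypes, as was Plin4, and lowest in knockout replicate 2.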
